A study of Mus musculus with 18 samples.

Results

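Guanylate-binding proteins (GBPs) and immunity-related GTPases (IRGs) are large GTPases that interferons induce in most cell types. They were followed here through 10 genes chosen by name, the GBP genes Gbp2, Gbp3, Gbp4, Gbp6 and Gbp7, the IRG genes Irgm1, Irgm2, Igtp and Iigp1, and Irf1, which encodes a transcription factor of the same response. These are 10 of the 55401 gene identifiers in the count table. Of the 10, 9 had a count in at least 1 library and 8 passed the filter on low counts in both series. The 2 that did not pass were Gbp4, with 82 counts in all libraries together, and Gbp6, whose identifier held 0 counts.

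RNA-seq of polyadenylated RNA was done on 18 cultures of mouse embryonic fibroblasts (MEFs), primary cells grown from embryos without head and viscera. In the S6K1 series, wild-type (WT) MEFs carried either an empty retroviral vector (EV) or one for an oncogenic form of HRAS (RAS), and MEFs without S6K1 (KO) carried RAS. In the S6K1/S6K2 series there were again WT cells with EV and with RAS, and the cells that lacked S6K1 as well as S6K2 (DKO) carried RAS. Each of the 6 groups had 3 libraries, of 8319445 to 14402442 counts each, and every culture had been infected and drug-selected. RAS, driven here by a retroviral vector, brings such cells into senescence, and S6K1 and S6K2 phosphorylate ribosomal protein S6 under the control of mTORC1. KO and WT cells of the S6K1 series came from littermate embryos, whereas WT cells of the S6K1/S6K2 series came from WT mothers of earlier breeding stages and were not littermates of the DKO cells. Kinase loss could be examined only in cells with RAS, because EV libraries of the mutants were not analysed here.

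The response that these genes belong to runs from an interferon at its receptor through JAK kinases to STAT transcription factors. STAT dimers bind gamma-activated sites (GAS), and a complex of STATs with IRF9 binds interferon-stimulated response elements (ISRE). Irf1 is induced through a GAS, and IRF1 in turn binds ISRE-like sites in GBP and IRG promoters. GBPs and effector IRGs such as Iigp1 (Irga6) coat and break the vacuoles of intracellular parasites and bacteria, and the regulatory IRGs Irgm1, Irgm2 and Igtp (Irgm3) keep the effectors off the membranes of the cell itself.

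The stretches of promoter just before the start sites are printed to show where GAS and ISRE cores lie in them. RefSeq promoter windows (GRCm38.p6, 250 bases before to 50 after a start site) matched 7 of the 10 genes, and Gbp4, Gbp6 and Iigp1 were not matched. In each line the last 120 bases before the start site are given 5′ to 3′ on the strand of the gene, with matches to the GAS core TTCNNNGAA or to the ISRE core (GAAA, any 2 bases, GAAA), sought on both strands, in capitals. An ISRE core on the other strand reads TTTC, any 2 bases, TTTC, and overlapping matches run together. The windows are Irf1 at chr11:53769894-53770013 on the plus strand, Gbp2 at chr3:142620543-142620662 on the plus strand, Gbp3 at chr3:142559924-142560043 on the plus strand, Gbp7 at chr3:142530216-142530335 on the plus strand, Irgm1 at chr11:48871421-48871540 on the minus strand, Irgm2 at chr11:58214857-58214976 on the plus strand and Igtp at chr11:58199436-58199555 on the plus strand.
Irf1: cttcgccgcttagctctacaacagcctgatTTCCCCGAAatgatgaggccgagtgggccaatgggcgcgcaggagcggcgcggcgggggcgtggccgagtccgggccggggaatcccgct
Gbp2: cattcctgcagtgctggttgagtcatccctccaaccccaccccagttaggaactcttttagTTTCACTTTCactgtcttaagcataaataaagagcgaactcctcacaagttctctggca
Gbp3: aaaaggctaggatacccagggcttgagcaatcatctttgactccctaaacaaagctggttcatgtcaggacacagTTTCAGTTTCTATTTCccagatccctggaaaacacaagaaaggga
Gbp7: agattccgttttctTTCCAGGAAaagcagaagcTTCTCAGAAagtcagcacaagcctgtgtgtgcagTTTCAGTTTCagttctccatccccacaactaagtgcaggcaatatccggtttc
Irgm1: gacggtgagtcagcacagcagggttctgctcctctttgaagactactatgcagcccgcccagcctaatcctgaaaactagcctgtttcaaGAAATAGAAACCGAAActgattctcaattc
Irgm2: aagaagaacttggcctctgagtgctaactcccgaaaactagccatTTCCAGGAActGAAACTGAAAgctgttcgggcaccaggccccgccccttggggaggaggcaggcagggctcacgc
Igtp: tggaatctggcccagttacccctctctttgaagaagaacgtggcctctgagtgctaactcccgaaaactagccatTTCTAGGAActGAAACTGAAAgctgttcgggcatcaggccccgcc

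All 7 genes with a window held at least 1 of the cores. They had 9 windows in all, because Gbp3 and Irf1 each had a second window, not printed, that held neither core. An ISRE core stood in 6 of the 9 windows, in every gene but Irf1, against 3.44% of all 32851 promoter windows. A GAS core stood in 4 of the 9, in Irf1, Gbp7, Irgm2 and Igtp, against 8.3% of all windows. Gbp7, Irgm2 and Igtp held both, as did 0.454% of all windows. In Irgm2 and in Igtp, which lie side by side on chromosome 11, the GAS and ISRE cores were 2 bases apart. The windows of these 2 neighbours share long stretches of sequence, so they are not independent cases. The genes were chosen as members of the interferon response, so shares above those of all windows follow in part from the choice. Such matches are letters in a window and not measured binding sites.

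The members lie on 4 chromosomes (NCBIM37). Gbp7, Gbp3 and Gbp2 follow each other at chr3:142193302-142300972, and Gbp4 and Gbp6 lie on chromosome 5. On chromosome 11 lie Irgm1 (chr11:48675470-48685185), Irf1 (chr11:53583516-53591876) and the neighbours Igtp (chr11:58013058-58021093) and Irgm2 (chr11:58028530-58036282), and Iigp1 lies on chromosome 18. Being copies of each other, the genes share sequence, which limits how well reads of 50 bases can be assigned. In annotated transcripts 9.64% of the 50-base stretches of Igtp and 6.83% of those of Irgm2 also occurred in another gene, mostly in each other, and the share was 0.0869% to 3.92% for the other tested members. It was 12.2% for Gbp4 and 80% for Gbp6. The annotation behind the count table is later than the one used for positions, so that the empty identifier of Gbp6 was not settled to be Gbp6 in the table, and its 0 counts say nothing of Gbp6 here.

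The knockouts showed in the counts of the kinase genes. Rps6kb1 (S6K1) had 61.6, 70.9 and 74.6 CPM, the count relative to library size with TMM scaling inside each series, in WT RAS and 23.6, 31.3 and 37 CPM in KO RAS of the S6K1 series, a lower level with reads left. Rps6kb2 (S6K2) had 24.5, 24.1 and 28.9 CPM in WT RAS and 2.68, 3.04 and 2.8 CPM in DKO RAS of the S6K1/S6K2 series. All 10 fibroblast markers were present in every group, with summed levels of 23682 to 54174 CPM. None of 10 markers of T and NK cells was detected in any group, with sums of at most 0.348 CPM, and 7 endothelial markers summed to 7.79 to 14.5 CPM.

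Markers of macrophages were present in every group, at levels that differed widely between libraries. All 14 were detected in each group, among them Csf1r, Adgre1 and C1qa. Their summed level was 3388, 2563 and 682 CPM in WT EV, 3894, 3495 and 764 CPM in WT RAS and 901, 708 and 255 CPM in KO RAS of the S6K1 series. It was 1499, 164 and 216 CPM in WT EV, 1064, 182 and 264 CPM in WT RAS and 248, 75.1 and 100 CPM in DKO RAS of the S6K1/S6K2 series. Macrophages also express GBP and IRG genes, and in bulk RNA fewer cells of a type cannot be told apart from less RNA per cell.

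Compared per kilobase of exon, Irgm1 was the most abundant member in each group. In WT RAS of the S6K1 series its mean was 60 CPM per kb, against 23 for Gbp2, 21.7 for Igtp, 12.6 for Gbp3, 12.4 for Irgm2, 7.55 for Iigp1, 5.3 for Irf1, 5.19 for Gbp7 and 0.257 for Gbp4. In DKO RAS, the group with the lowest GTPase levels, Irgm1 was at 8.61 CPM per kb Irf1 at 4.29 and Gbp2, Irgm2, Igtp, Iigp1, Gbp3 and Gbp7 at 0.701 to 2.66.

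Over the 7 tested GTPase genes, the mean of log2(CPM + 0.5) was 5.44 ± 1.21 (SD, n = 3) in WT RAS of the S6K1 series, 5.05 ± 0.48 in WT EV of the S6K1/S6K2 series and 4.82 ± 0.33 in WT EV of the S6K1 series. Lower means were found in KO RAS (3.80 ± 0.90), in WT RAS of the S6K1/S6K2 series (3.58 ± 1.16) and in DKO RAS (2.61 ± 0.41). Neighbours in this order overlapped in their ranges. The spread was wide within the WT RAS groups, where 1 library of 3 stood apart in each series. In the S6K1 series it was replicate 3, at 4.05 against 6.05 and 6.24 for replicates 1 and 2. In the S6K1/S6K2 series it was replicate 1, at 4.92 against 2.85 and 2.96 for replicates 2 and 3.

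**Figure D1:**
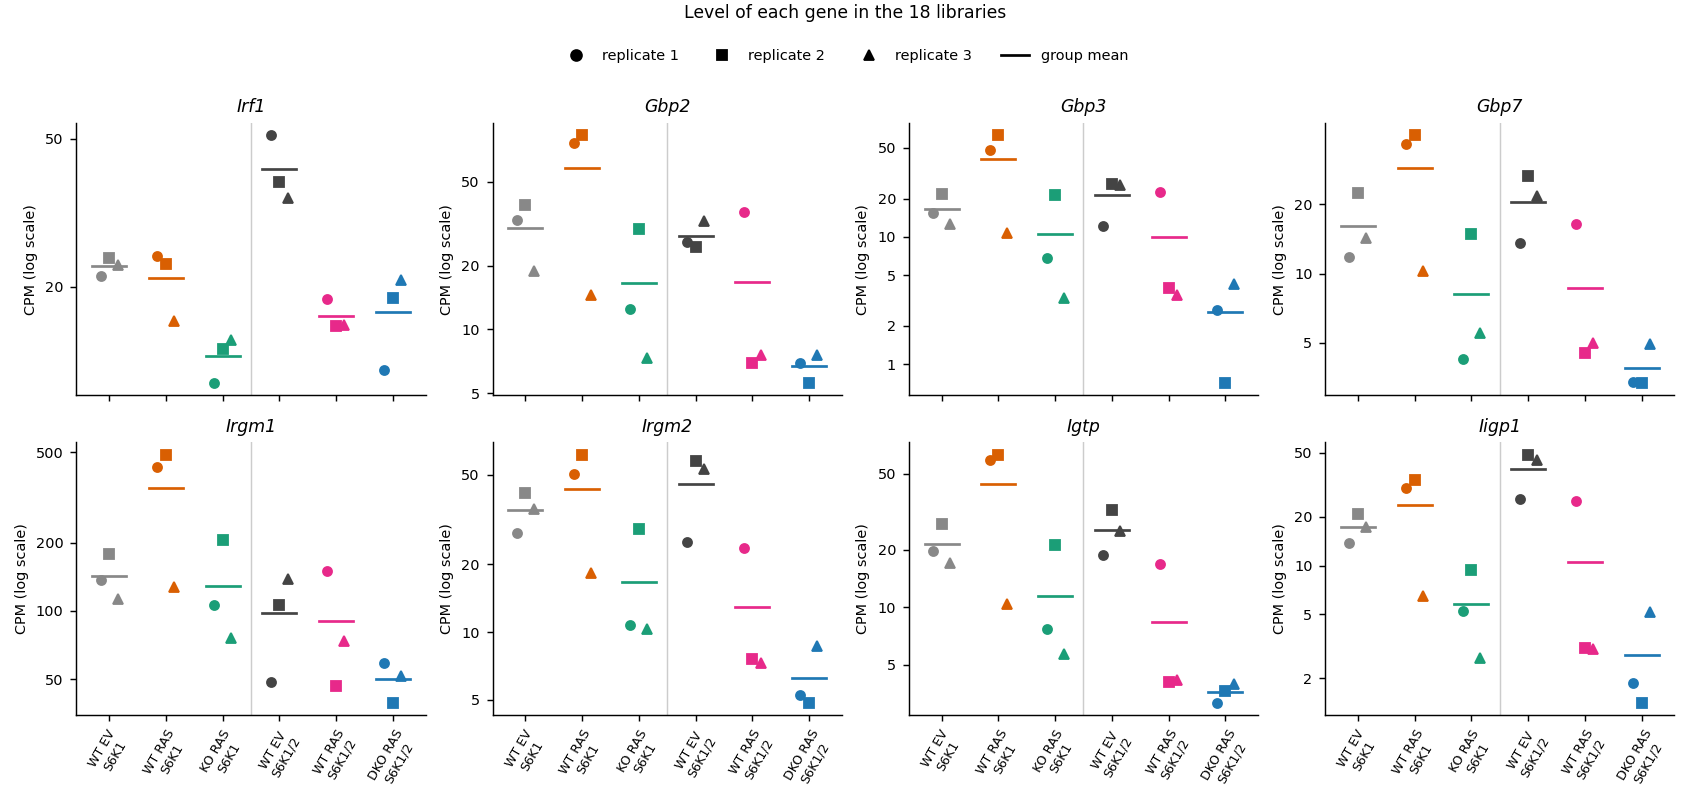
Level of each tested gene in the 18 libraries, in CPM on a log axis. Circles, squares and triangles are replicates 1, 2 and 3, horizontal lines are group means, and S6K1/2 stands for the S6K1/S6K2 series. In the 7 GTPase panels the WT RAS triangle of the S6K1 series and the WT RAS circle of the S6K1/S6K2 series lie far from the other 2 libraries of their groups.

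The response to RAS was asked in WT cells of each series. In the S6K1 series the GTPase genes were higher with RAS in replicates 1 and 2 and, Irgm1 excepted, lower in replicate 3. None of the 8 tested members passed the threshold (edgeR quasi-likelihood test, adjusted p under 0.05), where 13.2% of all 14036 genes did. At an unadjusted p under 0.05 it was 1, Irgm1, with 13.5% of all genes higher at that level. The replicate numbers pair the libraries of this series, and with the number as a block Irgm1 and Gbp3 rose, 2 of 8, where 36.2% of all genes passed and 18.1% rose. The median log2 fold change of the 8 was 0.89 (range -0.11 to 1.3), against 0 over all genes.

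Irgm1, the regulatory IRG, had 137, 178 and 113 CPM in WT EV and 430, 488 and 127 CPM in WT RAS of the S6K1 series. It was the only tested member that was higher with RAS in all 3 pairs, as were 31.6% of all genes, and the groups overlapped through replicate 3. Its log2 fold change was 1.29 ± 0.5 (SE, adjusted p = 0.132), and 1.12 ± 0.25 with the replicate block (adjusted p = 0.00655). Without WT RAS replicate 3 it passed without the block as well (1.69, adjusted p = 0.0189).

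Gbp3, the middle gene of the GBP cluster on chromosome 3, had 15.5, 21.6 and 12.6 CPM in WT EV and 48.6, 62.9 and 10.8 CPM in WT RAS of the same series. With RAS, replicates 1 and 2 lay above all EV libraries and replicate 3 lay below them. The fitted log2 difference was 1.3 ± 0.7 (adjusted p = 0.282), and 1.1 ± 0.34 with the block (adjusted p = 0.03).

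Gbp2, a membrane-anchored GBP, had 32.9, 39 and 19 CPM in WT EV and 76.2, 83.2 and 14.6 CPM in WT RAS. Its log2 fold change of 0.94 ± 0.64 did not pass (adjusted p = 0.403, and 0.0679 with the block). Gbp7 (0.84 ± 0.56), Igtp (1.04 ± 0.64), Iigp1 (0.44 ± 0.56) and Irgm2 (0.32 ± 0.48) did not pass in either fit. In the pair of replicate 3, Iigp1 was 1.35 and Irgm2 0.93 log2 units lower with RAS. Irf1 had 21.3, 23.9 and 22.9 CPM in WT EV and 24.1, 23 and 16.2 CPM in WT RAS, a log2 fold change of -0.11 ± 0.18 (adjusted p = 0.745).

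The blocked calls changed with each replicate number left out. Without replicate 3, 8 of the 9 members then tested rose, with a median of 1.22, where 20.3% of all genes rose. The 9 included Gbp4, which passed the filter there only through WT RAS, so that the filter favoured a rise of Gbp4. Without replicate 1 or without replicate 2 the count was 0, where 9.69% and 9.85% of all genes rose. The summed macrophage markers were higher with RAS by 0.2, 0.45 and 0.16 log2 units in the pairs of replicates 1, 2 and 3, beside 1.22, 0.9 and -0.54 for the GTPase mean. WT EV and WT RAS replicate 3 both had less macrophage marker RNA than the others of their group, and its part in these levels was not tested.

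In WT cells of the S6K1/S6K2 series Irf1, Irgm2 and Igtp fell with RAS, 3 of 8 tested members, in a comparison where 26.3% of all 13881 genes passed and 12.7% fell. All 8 had a log2 fold change below 0, as did 51.8% of all genes, with a median of -1.28 (range -1.93 to -0.12) against -0.02 over all genes. The same 3 members passed with the replicate block, as did 28.7% of all genes. In this series the block also tied DKO libraries to WT libraries by number, which these numbers do not pair.

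Irf1 had 51.1, 38.2 and 34.7 CPM in WT EV and 18.5, 15.7 and 15.8 CPM in WT RAS of this series. The groups did not overlap, and the pairs differed by -1.44, -1.25 and -1.12 log2 units. In the fit Irf1 fell, with a log2 fold change of -1.31 ± 0.22, which is 0.403 of the EV level (adjusted p = 0.00295), and leaving out any library of the comparison kept it past the threshold.

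Irgm2 had 25.2, 57.6 and 53.2 CPM in WT EV and 23.7, 7.62 and 7.32 CPM in WT RAS. The groups did not overlap, but replicate 1 of WT RAS lay just below replicate 1 of WT EV, while replicates 2 and 3 lay far below. Irgm2 fell, by a log2 fold change of -1.82 ± 0.48 (adjusted p = 0.0212). Without WT EV replicate 2, WT RAS replicate 2 or WT RAS replicate 3 the adjusted p was 0.0695, 0.0809 and 0.077.

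Igtp, a regulatory IRG of the endoplasmic reticulum, had 18.7, 32.1 and 25.1 CPM in WT EV and 16.9, 4.05 and 4.17 CPM in WT RAS. As for its neighbour Irgm2, WT RAS replicate 1 lay just below the EV libraries and replicates 2 and 3 far below. Igtp fell as well, with -1.6 ± 0.49 on the log2 scale (adjusted p = 0.0386). It no longer passed without WT EV replicate 2 (adjusted p = 0.115), WT EV replicate 3 (0.0561), WT RAS replicate 2 (0.119) or WT RAS replicate 3 (0.119).

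Iigp1, the effector IRG, had 25.7, 48.5 and 44.8 CPM in WT EV and 25.2, 3.1 and 3.06 CPM in WT RAS. The groups did not overlap, by a margin of 0.03 log2 units in the pair of replicate 1, and the log2 fold change of -1.93 ± 0.75 did not pass (adjusted p = 0.085). Irgm2, Igtp, Iigp1 and Irf1 were the 4 members whose WT RAS libraries all lay below every WT EV library, as did those of 21.7% of all genes.

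Irgm1 had 48.6, 106 and 138 CPM in WT EV and 150, 46.6 and 73.6 CPM in WT RAS, so that replicate 1 was 1.61 log2 units higher and replicates 2 and 3 were 1.18 and 0.91 lower with RAS. Its log2 fold change of -0.12 ± 0.44 did not pass (adjusted p = 0.866). Gbp2 (-0.73 ± 0.53), Gbp3 (-1.1 ± 0.72) and Gbp7 (-1.25 ± 0.47) were likewise higher in the pair of replicate 1, lower in those of replicates 2 and 3, and did not pass.

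The count in this comparison changed with single libraries. Without WT RAS replicate 1, 7 of the 8 members fell, all but Irgm1, with a median of -2.31, where 10.9% of all genes fell. Without WT EV replicate 2, WT RAS replicate 2 or WT RAS replicate 3 it was 1 member, Irf1, where 7.59%, 5.98% and 6.54% of all genes fell. In the pairs of replicates 2 and 3 the GTPase mean was 2.33 and 2.21 log2 units lower with RAS. The sum of the macrophage markers was 0.15 and 0.29 log2 units higher there. In the pair of replicate 1 the GTPase mean was 0.19 higher and the macrophage sum 0.49 lower. WT EV and WT RAS replicate 1 both had more macrophage marker RNA than the others of their group. Taken singly, 11 of the 14 markers had a log2 fold change below 0 and 3 above, with a median of -0.68. With the block 3 passed, C1qb, Csf1r and Laptm5, all lower, where 28.7% of all genes passed. The part of macrophage RNA in the GTPase levels was not tested.

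**Figure D2:**
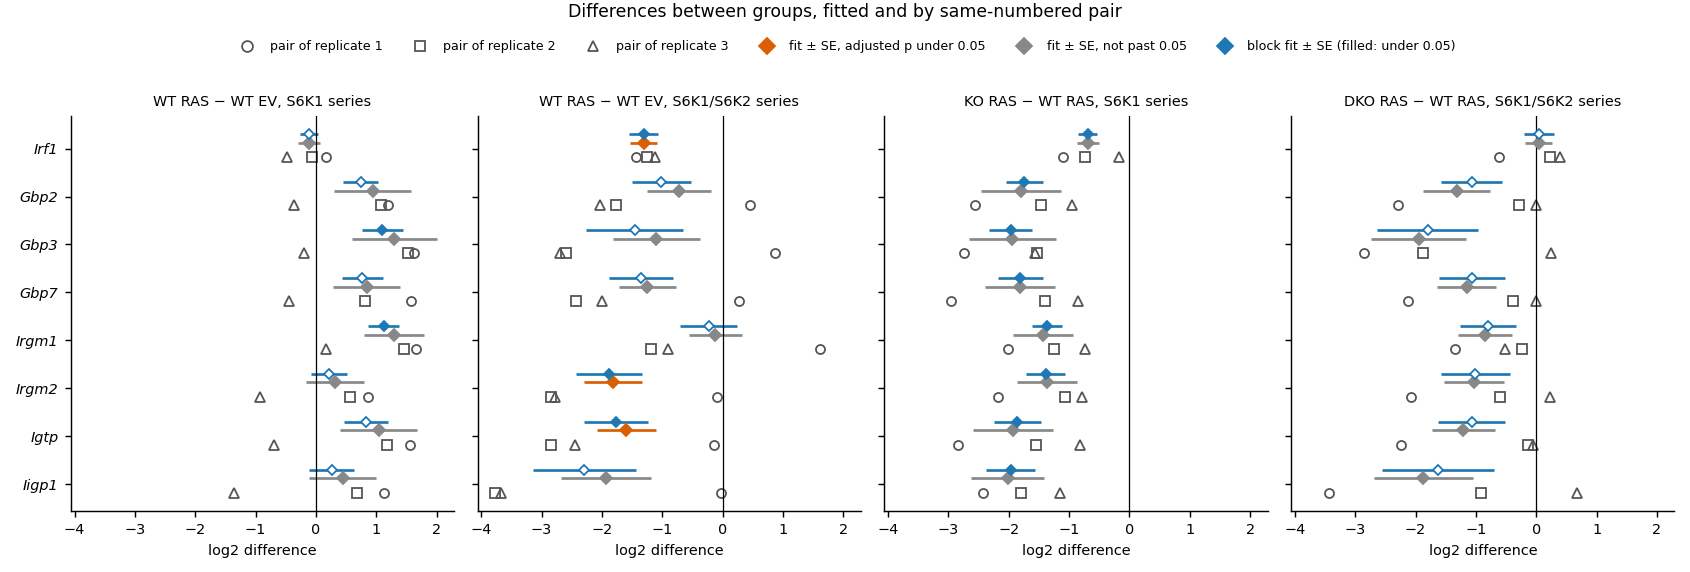
Differences between groups on the log2 scale for the 8 tested members in 4 comparisons. Open grey symbols are differences between same-numbered libraries, whose numbers do not pair DKO with WT, diamonds are edgeR fits with SE bars without the block (grey, or orange where past the threshold) and with it (blue, filled where past the threshold). For the GTPase genes with RAS, the pair of replicate 3 in the S6K1 series and that of replicate 1 in the S6K1/S6K2 series lie apart from the other pairs. In KO RAS every pair of every tested member lies below 0.

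Whether the RAS effect differed between the series was tested over all 18 libraries. It was lower in the S6K1/S6K2 series for all 8 members, as for 52.8% of all genes, with a median difference of -2.14 (range -2.66 for Igtp to -1.22 for Irf1). None passed the adjusted threshold, nor did any of the 14483 genes (0%). Without adjustment 6 of 8 were under 0.05 and lower, against 6.17% of all genes. The smallest adjusted p was 0.16 for Irf1, which DESeq2 called (-1.21, adjusted p = 0.023). With the replicate block in each series all 8 were under 0.05 unadjusted, against 11.7% of all genes, and 0 passed the adjusted threshold, as 0.4% of all genes did (adjusted p = 0.0798 for Irf1). The block of the S6K1/S6K2 series also tied in the DKO libraries, whose numbers do not pair them with WT. The WT cells of the series came from different breeding, and a difference between series cannot be told apart from that.

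Loss of S6K1 was compared in cells with RAS, against the same WT RAS libraries that entered the RAS comparison. All 8 tested members were lower in KO RAS than in WT RAS in every same-numbered pair, as were 17.8% of all genes. The fit without the block called none of the 8 and 0.00712% of all genes, although all 8 had an unadjusted p under 0.05 with a lower level, as did 5.22% of all genes. With the replicate number as a block all 8 fell, where 4.15% of all genes passed and 3.61% fell. The median log2 fold change was -1.8 without and -1.77 with the block, against 0.03 over all genes. The size varied among members from -2.02 for Iigp1 to -0.69 for Irf1.

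Irf1 had 24.1, 23 and 16.2 CPM in WT RAS and 11, 13.6 and 14.4 CPM in KO RAS. It was the only tested member whose groups did not overlap, as held in the lower direction for 4.17% of all genes. Its log2 difference was -0.69 ± 0.18, or 0.618 of the WT level (adjusted p = 0.587 without and 0.0445 with the block).

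Among the GBPs, Gbp2 had 76.2, 83.2 and 14.6 CPM in WT RAS and 12.5, 29.8 and 7.33 CPM in KO RAS. Every KO library lay below its own WT partner, but KO replicate 2 lay above WT replicate 3, and the same held for Gbp3 and Gbp7. The log2 fold change of Gbp2 was -1.8 ± 0.66 (adjusted p = 0.59), and -1.74 ± 0.3 with the block (adjusted p = 0.00957).

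Gbp3 had 48.6, 62.9 and 10.8 CPM in WT RAS and 6.82, 21.5 and 3.33 CPM in KO RAS. Its log2 fold change was -1.97 ± 0.36 with the block (adjusted p = 0.0122) and -1.94 ± 0.72 without (adjusted p = 0.598). Gbp7 had 36.4, 39.8 and 10.3 CPM in WT RAS and 4.27, 14.8 and 5.5 CPM in KO RAS, a log2 fold change of -1.81 ± 0.37 with the block (adjusted p = 0.0224) and -1.81 ± 0.58 without (adjusted p = 0.587). Its pair of replicate 1, 2.95 log2 units apart, was the widest of any tested member in this comparison.

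Among the IRGs, Irgm1 had 430, 488 and 127 CPM in WT RAS and 106, 206 and 76 CPM in KO RAS. Its log2 fold change was -1.37 ± 0.25 with the block (adjusted p = 0.0127) and -1.43 ± 0.5 without (adjusted p = 0.587). The other regulatory IRGs gave -1.39 ± 0.32 for Irgm2 (adjusted p = 0.0409) and -1.86 ± 0.39 for Igtp (adjusted p = 0.0255) with the block. Iigp1, the effector, had 30.4, 33.8 and 6.51 CPM in WT RAS and 5.27, 9.35 and 2.67 CPM in KO RAS. Its log2 fold change was -1.97 ± 0.41 with the block (adjusted p = 0.0255), and without the block it was -2.02 ± 0.6 (adjusted p = 0.587), which DESeq2 called (adjusted p = 0.0446).

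Gbp4 was counted 19, 22 and 2 times in WT RAS and 2, 6 and 1 times in KO RAS, and 9, 5 and 3 times in WT EV. It was not tested with all libraries, and in WT RAS and KO RAS its mean level was 1.17 ± 0.871 and 0.242 ± 0.195 CPM (SD, n = 3).

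Leaving out a replicate number changed the blocked count. With replicate 3 left out 9 of 9 members fell, Gbp4 among them, where 8.78% of all genes fell. Gbp4 passed the filter of that fit only through WT RAS, the group where it was high. The filter thus favoured a fall of Gbp4, and its call adds no support. With replicate 2 left out 1 fell, where 1.36% of all genes did, and with replicate 1 left out 0 fell, where 1.12% did. The medians were -2.02, -2.02 and -1.27. With all libraries and the block, all 14 macrophage markers fell as well, where 3.61% of all genes fell, with a median log2 fold change of -2.14. Without the block 0 of the 14 passed, where 0.00712% of all genes did. Their sum was 2.11, 2.3 and 1.58 log2 units lower in KO RAS in the pairs of replicates 1, 2 and 3, beside 2.35, 1.35 and 0.88 for the GTPase mean. The sum of the fibroblast markers was 0.11, 0.46 and 0.02 log2 units higher. Taken singly, 6 of the 10 fibroblast markers had a log2 fold change below 0 and 4 above, with a median of -0.22. The part of the macrophage RNA in the lower GTPase levels was not tested.

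Loss of both kinases gave 0 calls among the 8 members, with 0.0216% of all genes called. In this series 5 members, Gbp2, Gbp3, Gbp7, Igtp and Iigp1, were lower at an unadjusted p under 0.05, against 0.901% of all genes. The median log2 fold change was -1.18, and it was -0.22 without WT RAS replicate 1. DESeq2 likewise made 0 calls among the members.

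Igtp had 16.9, 4.05 and 4.17 CPM in WT RAS and 3.17, 3.65 and 3.97 CPM in DKO RAS. It was the only tested member whose groups did not overlap, as held in the lower direction for 3.05% of all genes, but WT RAS replicates 2 and 3 lay close to the DKO RAS libraries. The fit gave -1.21 ± 0.52 (adjusted p = 1). Gbp3 had 22.4, 3.93 and 3.52 CPM in WT RAS and 2.68, 0.71 and 4.24 CPM in DKO RAS, and the fit gave -1.95 ± 0.79, the largest difference among the 8 (adjusted p = 1). Irf1 had 18.5, 15.7 and 15.8 CPM in WT RAS and 11.9, 18.6 and 20.8 CPM in DKO RAS, a log2 fold change of 0.04 ± 0.22 (adjusted p = 1). Gbp4 was counted 7, 1 and 0 times in WT RAS and 0 times in each DKO RAS library.

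The summed macrophage markers were at 1064, 182 and 264 CPM in WT RAS and 248, 75.1 and 100 CPM in DKO RAS, and their part in the GTPase levels was not tested. In DKO RAS the GTPase mean was 2.22 to 3.04, and WT RAS replicates 2 and 3, at 2.85 and 2.96, were within that range. The difference in the loss effect between the series was 0.58 at the median, with 0 of 8 adjusted calls (0.0069% of all genes) and 1 member, Irf1, at an unadjusted p of 0.0204 (0.76 ± 0.3), where 0.725% of all genes were higher and under 0.05.

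Irf1 and the GTPase genes did not follow each other in every comparison. In WT EV of the S6K1/S6K2 series Irf1 was at its highest, 34.7 to 51.1 CPM, and replicate 1, with the most Irf1, had the lowest GTPase mean of the 3 libraries (4.50, against 5.34 and 5.32). In WT RAS of the S6K1 series, where the GTPase mean reached 6.05 and 6.24, Irf1 was at 24.1 and 23 CPM, close to its level in WT EV. The root mean square distance of a centred log2 profile over the 18 libraries from the mean profile of the 8 members was 0.17 for Gbp7, 0.24 for Irgm2, 0.28 for Igtp, 0.29 for Gbp2, 0.47 for Gbp3, 0.57 for Iigp1, 0.61 for Irgm1 and 0.87 for Irf1, against a median of 1.14 over 13360 genes. The profile is a mean of these same genes, so the distances only describe how alike they are.

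**Figure D3:**
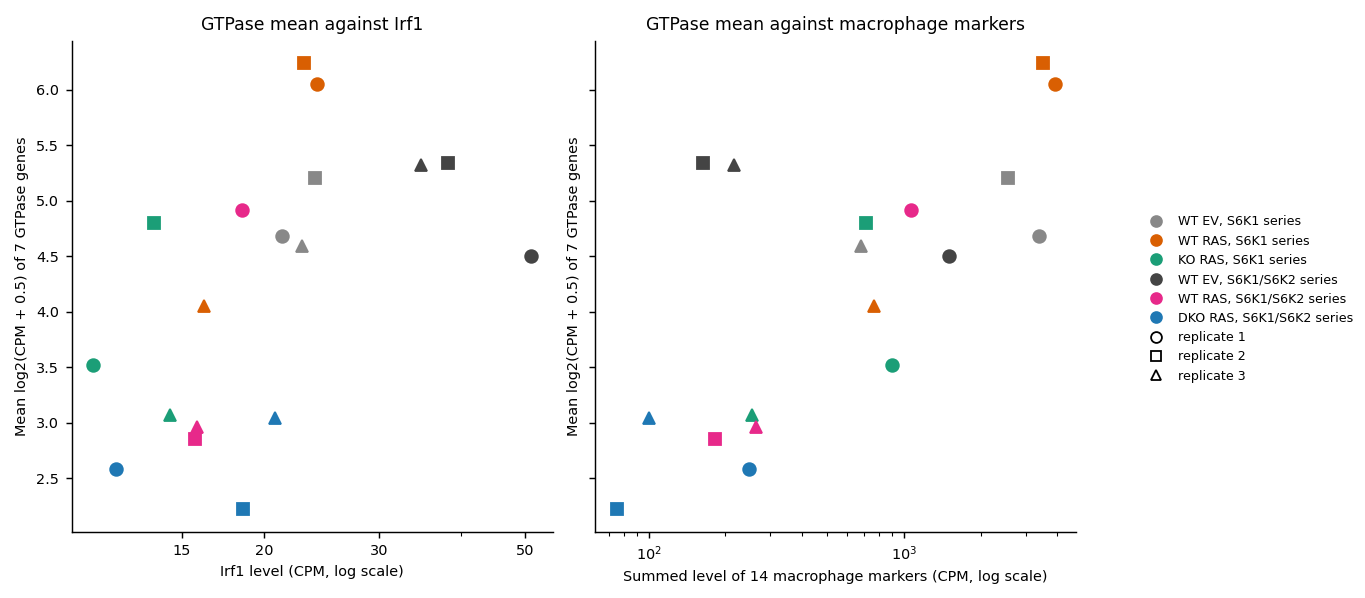
Mean log2(CPM + 0.5) of the 7 tested GTPase genes in each library against the level of Irf1 (left) and the summed level of 14 macrophage markers (right), both in CPM on log axes. Colours are groups and symbols are replicates. WT EV replicates 2 and 3 of the S6K1/S6K2 series have GTPase means of 5.34 and 5.32 with macrophage sums of 164 and 216 CPM, and WT RAS replicates 2 and 3 of that series have means of 2.85 and 2.96 with sums of 182 and 264 CPM. In both series the WT RAS library apart in GTPase mean is also apart in macrophage sum. It is replicate 3 of the S6K1 series (764 CPM, against 3894 and 3495) and replicate 1 of the S6K1/S6K2 series (1064 CPM). The part of macrophage RNA was not tested.

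Outside the members, the 10 genes with the nearest profiles included Dtx3l (distance 0.25), Xaf1 (0.25), Apol9b (0.26), Parp9 (0.26), Oas1b (0.27), Trim34a (0.29), Trim21 (0.31), Ifi47 (0.31) and Rtp4 (0.32). Ifi47 is itself an IRG gene, Dtx3l and Parp9 encode partner proteins in ubiquitin and ADP-ribose transfer, and Oas1b belongs to the oligoadenylate synthetase family. Dtx3l had 46.1, 64.6 and 17.4 CPM in WT RAS and 11.9, 26.8 and 11.5 CPM in KO RAS of the S6K1 series. In the S6K1/S6K2 series it had 25.8, 9.41 and 8.43 CPM in WT RAS. The same WT RAS libraries stood apart as for the members. That follows from the choice of these genes, which were picked for nearness to the members over these same libraries. Of the 6 that matched a promoter window, 3 (Apol9b, Trim34a and Trim21) held an ISRE core and 0 held a GAS core.

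**Figure D4:**
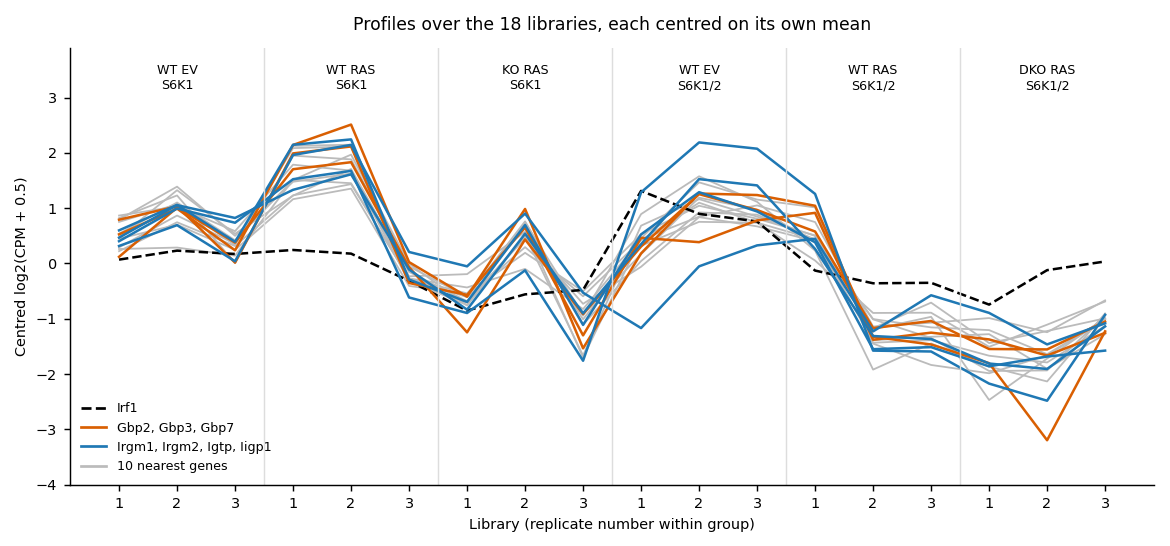
Profiles of the 8 tested members and of the 10 nearest other genes over the 18 libraries, as log2(CPM + 0.5) centred on the mean of each gene. GBPs are orange, IRGs blue, Irf1 black and dashed, and the nearest genes grey. The coloured and grey lines move together, with peaks in WT RAS replicates 1 and 2 of the S6K1 series, and Irf1 spans a narrower range than they do. The grey genes were picked for their nearness over these libraries, so their likeness follows from the choice.

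The pathway upstream was read from a list of 19 genes, of which 15 were tested. The ligands on the list, Ifng, Ifnb1, Ifnl2 and Ifnl3, were hardly counted, and other interferon genes were not on it. Ifng, Ifnl2 and Ifnl3 had 0 counts in every library, which allows up to 0.208 to 0.361 CPM at these depths, and Ifnb1 had 8 counts in all, found in WT RAS replicates 1 and 2 (0.256 and 0.311 CPM) and KO RAS replicate 2 (0.0766 CPM) of the S6K1 series. The interferon-gamma receptor genes were present in every library, Ifngr1 at 51 to 108 CPM and Ifngr2 at 120 to 189 CPM. Ifngr1 rose with RAS with the block, by 0.4 ± 0.1 log2 units in the S6K1 series (adjusted p = 0.0133) and 0.52 ± 0.16 in the S6K1/S6K2 series (adjusted p = 0.0465), and did not pass without it (0.0964 and 0.11).

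Of the STAT genes, Stat2 passed in KO RAS with the block alone (-1.25 ± 0.24, adjusted p = 0.0179). Stat3 fell with RAS in both series, with log2 fold changes of -0.71 ± 0.12 (adjusted p = 0.00522) and -0.42 ± 0.13 (adjusted p = 0.0381).

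Kinases and inhibitors of the pathway moved in both directions. Over the whole list, 4 of 15 passed with RAS in the S6K1/S6K2 series (26.3% of all genes), 3 lower, among them Stat3 and Socs1, and 1 higher, Jak2. Socs1, an inhibitor of JAK kinases, changed by -1.83 ± 0.34 (adjusted p = 0.0046) and Jak2 by 0.7 ± 0.14 (adjusted p = 0.00624). In the S6K1 series 1 of 15 passed with RAS (13.2% of all genes), Stat3. With the block 3 of 15 rose, Ifngr1, Ifngr2 and Usp18, and 3 fell, Stat3, Jak1 and Pias1. In that fit 36.2% of all genes passed and 18.1% rose. In KO RAS 0 of 15 passed without the block and 3 with it, among them Stat2 and Usp18, the latter an inhibitor of type I receptor signalling with -2.2 ± 0.45 (adjusted p = 0.0236), where 4.15% of all genes passed. In DKO RAS 0 of 15 passed.

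Among 8 other IRF genes, 7 were tested. In KO RAS with the block Irf5, Irf7, Irf8 and Irf9 fell, by 0.78 ± 0.17 log2 units for Irf9 (adjusted p = 0.0288) to 2.22 ± 0.2 for Irf8 (adjusted p = 0.000161), 4 of 7 where 3.61% of all genes fell, and 0 passed without it. Irf8 and Irf5 are expressed in myeloid cells, as the macrophage markers are. Irf9 fell with RAS in the S6K1/S6K2 series (-1.07 ± 0.27, adjusted p = 0.0181).

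Of 17 further GBP and IRG genes 15 had an identifier and 7 to 9 were tested in a series. Gbp9 had 10.8, 13.5 and 2.49 CPM in WT RAS and 1.27, 2.61 and 1.17 CPM in KO RAS of the S6K1 series. Gbp9, Gm12250, Gm4951 and Gm5431 fell in KO RAS with the block, 4 of 9, where 3.61% of all genes fell, and 0 passed without it, where 0.00712% did. Irgq, a divergent relative, was at 31.2 to 61.4 CPM in every library and did not pass in any comparison within a series. With RAS in the S6K1/S6K2 series the IRG pair genes 9930111J21Rik1 and 9930111J21Rik2 rose, 2 of 7, where 13.5% of all genes rose. 9930111J21Rik2 had 0.524, 1.77 and 2.27 CPM in WT EV and 4.21, 7.74 and 8.34 CPM in WT RAS, with no overlap (log2 fold change 2.15 ± 0.47, adjusted p = 0.00932). They are near copies of each other, so that their reads may be split between them.

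Of the other interferon-induced GTPases, Mx1 and Mx2, antiviral dynamin-like proteins, fell in KO RAS with the block (-2.41 ± 0.49, adjusted p = 0.0241, and -2.03 ± 0.39, adjusted p = 0.0164), and Gvin1, a very large GTPase, did not (0.25 ± 0.22, adjusted p = 0.605). All 3 rose with RAS in the S6K1 series with the block, where 18.1% of all genes rose, and 0 of 3 passed without it, where 13.2% did. In the S6K1/S6K2 series 0 of 3 passed with RAS in either fit.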

How the data were processed

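Per the study's methods, polyadenylated RNA of 18 MEF cultures was sequenced as stranded single-end 50-base reads. The authors deposited raw counts per gene. Their methods name TopHat, mm9 and HTSeq, whereas the submitters' processing notes name STAR 2.7.1a, mm10 and DESeq2 1.28.1, and which made the table was not settled. Samples were grouped by their labels, and all 18 count columns were used. Library totals were 8319445 to 14402442 counts, and 3 counts correspond to 0.208 to 0.361 CPM. These limits cover counting error only.

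Each series was fitted over its 9 libraries with edgeR 4.0.16 (R 4.3.3, quasi-likelihood test, two-sided, TMM scaling, filterByExpr with a minimum count of 10, group as the only term, Benjamini-Hochberg adjustment over all genes tested, threshold 0.05). Differences between series were fitted over all 18 libraries. The SE of a log2 fold change is its size divided by the square root of the test's F. Levels are CPM with TMM scaling within a series, and log2 levels use a pseudocount of 0.5 CPM. The scripts were tested on simulated data. DESeq2 1.42.0, its size factors, other filters, the 6 libraries compared alone, the replicate number as a block and leaving out each library were tried as alternatives. A block fit without 1 replicate number was chosen after seeing the data.

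Same-numbered libraries deviated together from their group means. Over genes the correlation of these deviations in replicates 1, 2 and 3 was 0.659, 0.429 and 0.658 between WT RAS and WT EV and 0.675, 0.38 and 0.607 between KO RAS and WT RAS in the S6K1 series, and 0.362, 0.291 and 0.299 between WT RAS and WT EV in the S6K1/S6K2 series. These were taken as pairs. The block was fitted over all libraries of a series. In the S6K1/S6K2 series it therefore also tied DKO to WT libraries by number, although these numbers do not pair them. Each blocked value of that series has this limit. The files do not state that all replicates are separate embryos, so p-values measure the spread between these libraries.

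The named genes are the members, the kinase genes, genes of the lists that passed a fit together with ligands, receptors and STATs, and the 10 nearest profiles. Nearness is the root mean square difference of centred log2 profiles among genes with a mean of at least 1 CPM. The members and lists were chosen with earlier results of these data known. List symbols without a match in the name table (Gbp2b, Gbp10, Psmb9 and Rabgdia) were left out, and some listed genes are not reported here. Promoters are from RefSeq on GRCm38.p6 and gene positions are on NCBIM37.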

Additional observations from a re-analysis of the deposited data

How the results depend on the processing

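With DESeq2's size factors, or with a minimum of 10 counts in every library, the count of members called was that of the main test in all 6 comparisons. Fitting the 6 compared libraries alone gave 2 calls in place of 3 for RAS in the S6K1/S6K2 series and 0 in the other 3 comparisons within a series. The block on replicate number raised the members called from 0 to 2 for RAS and from 0 to 8 for loss of S6K1 in the S6K1 series, and it changed no other call. For DKO against WT RAS the same-numbered correlations were 0.281, 0.443 and -0.032, so these numbers do not pair libraries, and the block gave 0 calls and a median of -1.07. DESeq2 called 1 member for RAS in the S6K1 series, 1 for loss of S6K1 and 1 for the difference in RAS effect. Over all genes with an adjusted p it called 2359 of 16899, 96 of 14758 and 139 of 16653 in these comparisons. Its added calls were Irgm1, Iigp1 and Irf1, with Gbp7 for RAS in the S6K1/S6K2 series, where it called 4139 of 15622 genes. Without the filter the counts were 1 for RAS and 1 for loss in the S6K1 series, 5 for RAS in the S6K1/S6K2 series and 3 for the difference in RAS effect. Over all genes the calls without the filter were, in the same order, 2043 of 27614, 108 of 27614, 3906 of 27277 and 204 of 30065. Leaving out single libraries, 0 to 1 members were called for RAS in the S6K1 series (1 without WT RAS replicate 3), 1 to 7 in the S6K1/S6K2 series, 0 for loss of S6K1, and 0 to 1 for the difference in RAS effect (1 without WT EV replicate 3 of the S6K1/S6K2 series). Medians then ran from -2.31 to -1.11 for RAS and from -1.49 to -0.22 for loss in the S6K1/S6K2 series, and from -2.94 to -1.81 for the difference in RAS effect. With a block and 1 replicate number left out, the counts without replicates 1, 2 and 3 were 0, 0 and 8 for RAS and 0, 1 and 9 for loss in the S6K1 series, and 8, 0 and 1 for RAS in the S6K1/S6K2 series, where the median without replicate 1 was -2.55. Over all genes the fits of the S6K1/S6K2 series called 3769 of 13933, 122 of 14026 and 3201 of 13929. Changes of sign on leaving out a library were seen for values that had not passed. They were Irgm2 (-0.0011 to 0.69) and Irf1 (-0.21 to 0.05) with RAS in the S6K1 series, Irgm1 with RAS (-0.7 to 0.23) and Irf1 with kinase loss (-0.13 to 0.24) in the S6K1/S6K2 series, and the difference in loss effect for Gbp3 (-0.54 to 1.45) and Iigp1 (-0.57 to 1.95). The causes were not tested. Members below 10 counts, such as Gbp4, were limited by depth. In the S6K1 series fits without replicate 3, Gbp4 passed the filter only through WT RAS, the group where it was high.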

Other observations

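Known targets of IRF1 other than the GTPases were read from a list of 24 genes, of which 18 were tested. In KO RAS of the S6K1 series 8 fell with the replicate block and 0 passed without it, where 4.15% and 0.00712% of all genes passed. Psmb8, a subunit of the immunoproteasome, had 40.7, 38.6 and 7.31 CPM in WT RAS and 6, 8.58 and 3.08 CPM in KO RAS. Cxcl10, a chemokine, had 57.1, 54.1 and 4.42 CPM in WT RAS and 8, 15 and 1.83 CPM in KO RAS. In both genes replicate 3 of WT RAS stood low, as in the GTPase genes. The macrophage markers fell in the same comparison, and their part in these levels was not tested.

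Nlrc5, the transactivator of MHC class I genes, rose with RAS in both series. It had 9.19, 17.4 and 8.25 CPM in WT EV and 74.7, 97.3 and 55 CPM in WT RAS of the S6K1 series, without overlap (log2 fold change 2.7 ± 0.37, edgeR adjusted p = 0.00184). In the S6K1/S6K2 series it had 6.55, 6.1 and 7.08 CPM in WT EV and 50.4, 37.6 and 23.8 CPM in WT RAS (2.5 ± 0.3, adjusted p = 0.000548). There Tapbp, Trim21 and Vcam1 of the same list fell, 3 of 18, where 12.7% of all genes fell. Replicate 3 of WT RAS in the S6K1 series, which was low for the GTPase genes, was thus above every EV library for Nlrc5.

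Partners of the GTPases at vacuoles and in inflammasomes were read from 20 genes, of which 17 to 19 were tested. In KO RAS of the S6K1 series Casp1, Nlrp3, Gsdmd, Lgals3 and Lgals8 fell with the block, 5 of 19, where 3.61% of all genes fell, and 0 passed without it, where 0.00712% did. Casp1, the inflammasome protease, had 7.43, 6.54 and 0.803 CPM in WT RAS and 1.09, 0.843 and 0.417 CPM in KO RAS. All 14 macrophage markers fell in that fit as well, and their part in the levels of these 5 genes was not tested. With RAS the autophagy gene Atg12 rose in both series, by 0.41 ± 0.1 (adjusted p = 0.0256) and 0.6 ± 0.13 log2 units (adjusted p = 0.0101). It was the only one of 19 to pass in the S6K1 series, where 13.2% of all genes passed. In the S6K1/S6K2 series Atg7 and Sqstm1 rose and Atg3 fell as well. With Atg12, 3 of 17 rose there and 1 fell, where 13.5% of all genes rose and 12.7% fell.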
